A study of Mus musculus with 4 samples.

Results

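The 44 genes described here are the replication and S-phase genes of a chosen list, found by gene symbol among the 23337 symbols of the count files. All 44 were present. They comprise 10 genes of origin licensing, 8 of helicase activation, 7 of the polymerases and primase, 9 of the sliding clamp, its loader and lagging strand work, 3 of chromatin assembly and maintenance, 4 of nucleotide synthesis and 3 of S-phase entry. The RNA came from Tomato-positive cells that were sorted out of regenerated olfactory epithelium, with 4 mice of mixed background and 1 mouse per sample. Of these, 2 were controls (Lmnb1+/-) and 2 were mutants (Lmnb1-/-), so control cells also lacked 1 copy of Lmnb1, which encodes the nuclear lamina protein lamin B1. In every mouse, Cre recombinase driven by the keratin 5 promoter (K5Cre) deleted floxed Lmnb1 exon 2 and switched on the R26 Ai9 Tomato reporter in horizontal basal cells, the reserve stem cells of this tissue. All mice were given 50 mg/kg methimazole, which destroys the epithelium, and had 4 weeks of recovery, so the sorted cells were a mixture of stem cells, progenitors, neurons and supporting cells that descend from recombined basal cells. The tissue was a mosaic, and cells without recombination were not sorted. Mice formed 2 experimental groups with 1 control and 1 mutant littermate each, matched in age, sex and treatment. Control 1 and mutant 1 belong to experimental group 1, and control 2 and mutant 2 to experimental group 2. Per the study's methods, mice were young adults when treated.

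DNA replication begins when the origin recognition complex, Cdc6 and Cdt1 load the ring-shaped Mcm2-7 helicase onto DNA, a step called licensing. At S phase, Cdc7-Dbf4 and cyclin-dependent kinases turn that ring into an active helicase with Cdc45 and the GINS complex, and primase, polymerases, the Pcna clamp and ligase copy both strands. In the olfactory epithelium these genes are used by dividing basal cells, which replace neurons throughout life, and they are switched off as neurons mature.

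Gene counts summed to 14833396 to 23704638 per library. Mutant 1 stood apart: 39.41% of its uniquely aligned reads fell outside genes, against 22.08% to 24.88% in the other libraries, and 1603 genes were at 0 in it, against 5173 to 6053. Lmnb1 itself had 477 and 395 counts in controls 1 and 2 and 326 and 149 in mutants 1 and 2. Both mutants were thus below both controls in raw counts, with a fitted log2 fold change of -0.72 ± 0.31 (SE) that did not pass the threshold (adjusted p = 0.195). Only exon 2 is deleted, and the gene count also takes reads from the rest of the gene. Reads were not split by exon, so the source of the remaining counts was not tested. By PCR of later exons, the study found the Lmnb1 transcript depleted in sorted mutant cells. It also reported lamin B1 staining in a small minority of Tomato-positive cells of the mutants. Horizontal basal, progenitor, neuronal and sustentacular markers were all detected. Hba-a1 and Hba-a2, which encode the globin of red blood cells, were listed at 0 in all 4 libraries.

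The replication and S-phase genes were, on balance, at higher levels in the mutants. Of the 44, 5 rose, 0 fell and 39 did not pass the test, at an adjusted p under 0.05 across the 15438 genes tested. The 5 were Mcm2, Mcm3, Mcm5 and Mcm6, which are 4 of the 6 subunits of the replicative helicase, and Uhrf1, which keeps DNA methylation in place behind the fork. They made up 11.4% of the members, whereas 1.28% of all tested genes rose and 4.3% fell. All 44 members had passed the filter on low counts as applied here, with tally lines left out of the library totals, so no member was lost before the test. At an unadjusted p under 0.05 the members numbered 14, all higher in the mutants, beside 6.32% of all genes that were higher at that level. In a bulk sample of mixed cells, more cells of a dividing type and more RNA per cell cannot be told apart. The study labelled dividing cells with EdU in whole epithelium, which also holds cells without recombination. It found no difference in proliferation rate between mosaic mutants and controls. Among the genes that rose in the sorted cells, it reported cell cycle as an enriched category.

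The direction was shared far beyond the 5 genes, although most differences were small. Fitted log2 fold changes were above 0 for 37 members (84.1%, against 48.9% of tested genes), and the median over the members was 0.47, or 1.39-fold, against -0.01 over all genes. Within experimental group 1 the median log2 ratio of mutant over control was 0.42, and within group 2 it was 0.44. The mutant was above its own littermate control in both experimental groups for 34 members (77.3%), compared with 29.8% of all genes. Both mutants were above both controls for 19 members (43.2%), against 12.6% of all genes, and both were below for 0 members, against 13.3%. For the other 25 members the genotypes overlapped. Summed over the 44 genes, the level was 964 and 820 CPM (counts scaled to the library total with TMM factors) in controls 1 and 2 and 1219 and 1060 CPM in mutants 1 and 2. Both mutants lay above both controls in this sum, by 1.26-fold within group 1 and 1.29-fold within group 2.

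**Figure D1:**
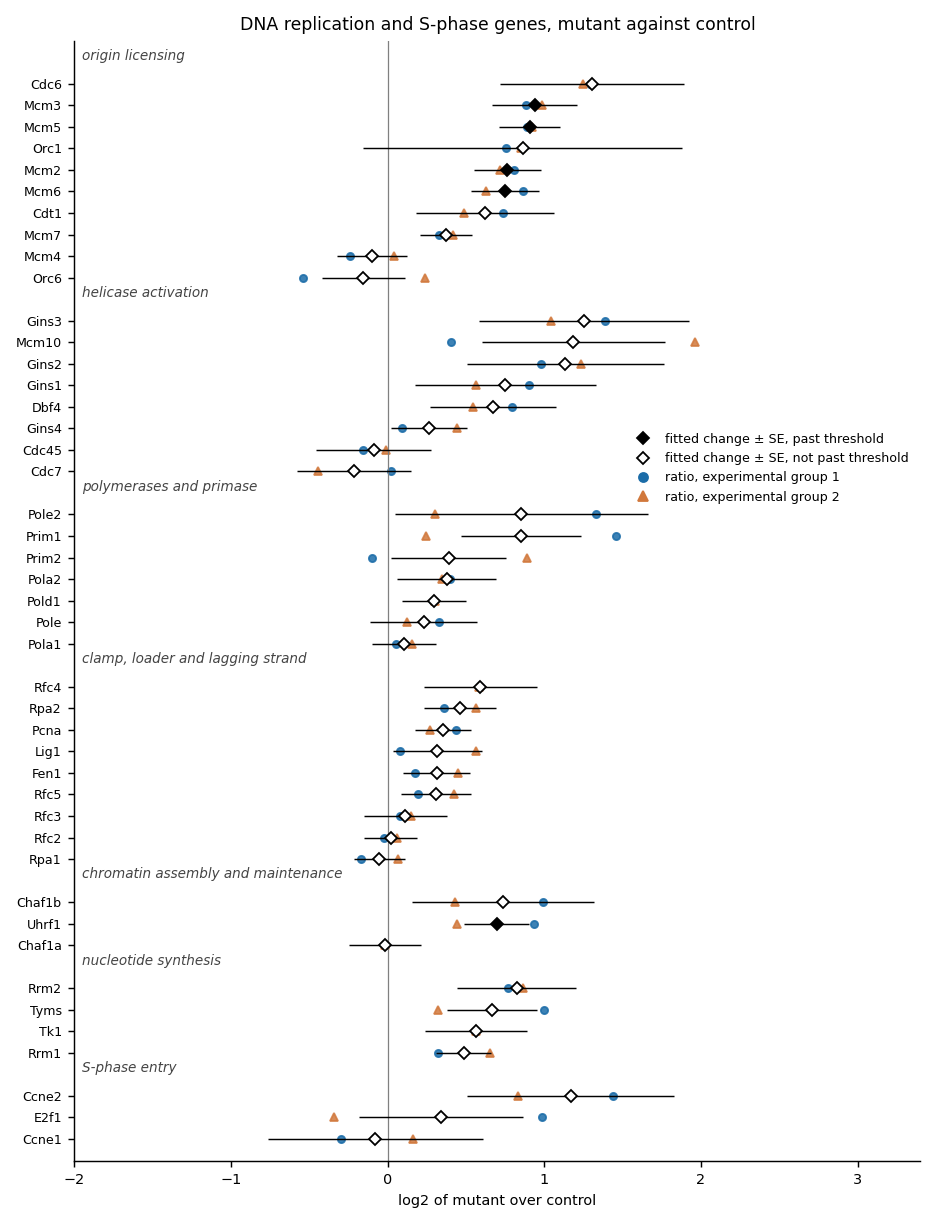
The log2 of mutant over control for each of the 44 genes, sorted by role, with the ratio within experimental group 1 (circles), the ratio within group 2 (triangles) and the fitted change with its standard error (diamonds, filled where the adjusted p is under 0.05). The 5 filled diamonds are Mcm3, Mcm5, Mcm2, Mcm6 and Uhrf1, and fitted changes run from -0.21 (Cdc7) to 1.30 (Cdc6).

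Mcm5, a helicase subunit at the gate through which the ring opens, lies at chr8:75109569-75128439 on the plus strand (mm10). Its level was 30.7 and 19.5 CPM in controls 1 and 2 and 57.0 and 37.0 in mutants 1 and 2. Each mutant was above both controls, and group 1 was above group 2 in either genotype. The fitted fold change was 1.87 (95% interval 1.44 to 2.45, log2 0.91 ± 0.20 SE, adjusted p = 0.000387).

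Mcm2, the subunit on the other side of that gate, lies at chr6:88883474-88898780 on the minus strand. It was measured at 28.1 and 18.6 CPM in controls 1 and 2 and 49.1 and 30.7 in mutants 1 and 2. Mutant 2 exceeded control 1 only narrowly, but the genotypes did not overlap. The fold change was 1.70 (1.27 to 2.26), with an adjusted p of 0.00947.

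Mcm3, which pairs with Mcm5 in the ring, lies at chr1:20802968-20820312 on the minus strand. Control 1 had 16.9 CPM and control 2 had 11.7, while mutant 1 had 31.1 and mutant 2 had 23.3. The gap between the genotypes was clear in both experimental groups. The fold change was 1.92 (1.33 to 2.76), with an adjusted p of 0.0145.

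Mcm6 lies at chr1:128331590-128359664 on the minus strand. Its levels were 22.2 and 24.5 CPM in controls 1 and 2, and 40.3 and 37.9 in mutants 1 and 2. Samples of the same genotype were close to each other, and the difference between the experimental groups was near 0 (log2 0.03 ± 0.22 for group 2 over group 1). The fold change was 1.68 (1.25 to 2.25), with an adjusted p of 0.0148.

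Uhrf1, which binds hemimethylated DNA after replication and recruits the maintenance methyltransferase, lies at chr17:56303321-56323486 on the plus strand. It stood at 28.7 and 25.4 CPM in controls 1 and 2 and 55.0 and 34.6 in mutants 1 and 2. Mutant 1 was far above the rest and mutant 2 moderately above both controls, with a log2 ratio of 0.93 within group 1 and 0.44 within group 2, a gap that was not tested. The fold change was 1.62 (1.22 to 2.15), with an adjusted p of 0.0223.

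**Figure D2:**
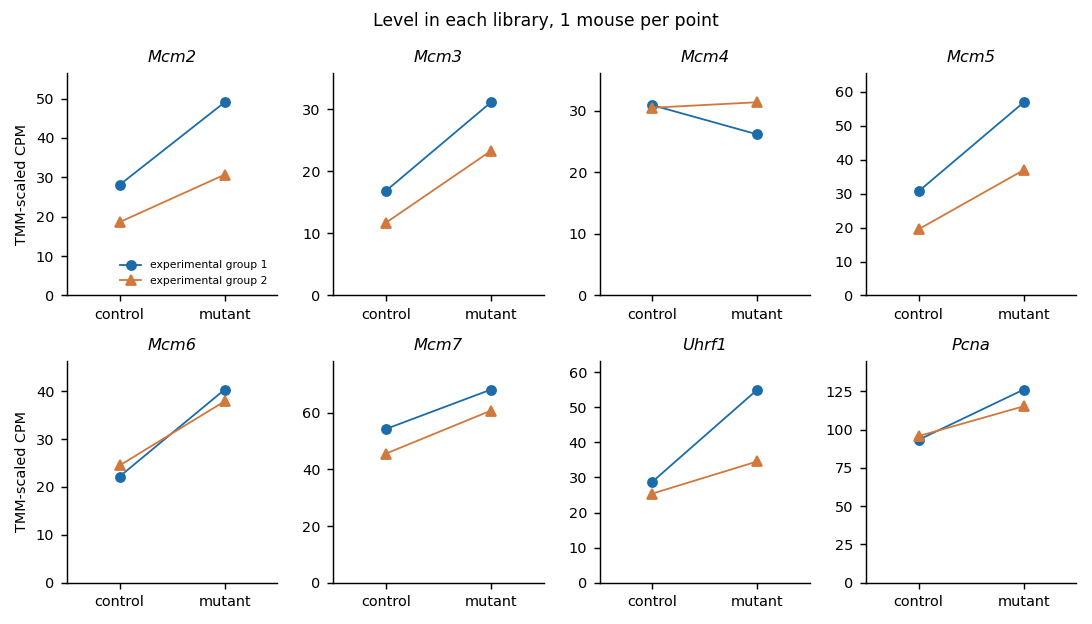
TMM-scaled CPM (linear axes from 0) of the 6 helicase subunits Mcm2 to Mcm7, Uhrf1 and Pcna in each library, with a line joining the control and the mutant of each experimental group. The lines of Mcm2, Mcm3, Mcm5, Mcm6 and Uhrf1 rise in both groups, whereas for Mcm4 one line falls, from 30.9 to 26.1 CPM, and the other is nearly flat, from 30.5 to 31.4 CPM.

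These 5 calls depended on the test and on the littermate term. Mcm5 passed under each test that kept experimental group in the model. Under edgeR's quasi-likelihood test Mcm3 (adjusted p = 0.0625), Mcm6 (0.0561) and Uhrf1 (0.0735) did not pass. Under DESeq2, which gave an adjusted p for 22 of the 44 members, Mcm2 (0.0633), Mcm3 (0.0551), Mcm6 (0.0792) and Uhrf1 (0.103) did not. Without experimental group in the model none of the 5 passed (adjusted p = 1.00 for each), and 0 of the 44 had an unadjusted p under 0.05. When mutant 1 was also left out, the log2 fold changes were 0.39 for Mcm2, 0.70 for Mcm3, 0.55 for Mcm5, 0.69 for Mcm6 and 0.35 for Uhrf1. With 2 mice of each genotype exchanged freely across littermate pairs, an exact two-sided permutation test of any single gene cannot give a p below 0.333. With exchange only within the pairs, that limit is higher.

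The promoters of these 5 genes are shown because E2F factors, which drive S-phase genes, and NF-Y, which binds CCAAT in many cell cycle promoters, are textbook regulators of licensing genes. Windows from 250 bases before to 50 after the start of the gene were taken from RefSeq (GRCm38.p6, the same assembly as mm10) and were found for 36 of the 44 members. Capitals mark E2F-type letters (TTTCCCGC, TTTCGCGC, TTTGCCGC or TTTGGCGC) and CCAAT, each on either strand. Printed stretches end 1 base before the RefSeq start, and a match is a description of letters, not evidence of binding.
Mcm2, chr6:88898781-88898975, minus strand: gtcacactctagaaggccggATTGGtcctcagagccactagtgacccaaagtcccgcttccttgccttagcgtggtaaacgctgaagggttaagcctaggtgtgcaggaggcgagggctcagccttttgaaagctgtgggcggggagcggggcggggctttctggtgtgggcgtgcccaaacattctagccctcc
Mcm3, chr1:20820313-20820449, minus strand: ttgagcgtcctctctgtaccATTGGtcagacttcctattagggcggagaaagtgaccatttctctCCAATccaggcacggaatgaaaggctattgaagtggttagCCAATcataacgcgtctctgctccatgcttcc
Mcm3, 27 bases within its first exon, chr1:20820267-20820293, minus strand: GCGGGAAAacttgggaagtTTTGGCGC
Mcm5, chr8:75109336-75109508, plus strand: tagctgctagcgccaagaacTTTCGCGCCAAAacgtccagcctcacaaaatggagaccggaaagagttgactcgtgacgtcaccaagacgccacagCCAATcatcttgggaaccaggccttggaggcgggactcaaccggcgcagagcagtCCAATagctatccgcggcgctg
Mcm6, chr1:128359706-128359835, minus strand: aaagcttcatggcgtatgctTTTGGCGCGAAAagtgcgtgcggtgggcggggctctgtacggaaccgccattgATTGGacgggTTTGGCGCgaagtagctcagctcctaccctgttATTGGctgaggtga
Uhrf1, second of its RefSeq starts, chr17:56304108-56304312, plus strand, between annotated exons: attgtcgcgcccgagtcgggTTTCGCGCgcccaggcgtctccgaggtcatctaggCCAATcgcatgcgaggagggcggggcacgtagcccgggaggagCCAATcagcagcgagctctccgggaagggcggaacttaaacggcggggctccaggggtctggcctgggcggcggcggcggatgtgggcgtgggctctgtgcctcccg

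Mcm3, Mcm5, Mcm6 and the second of the 2 Uhrf1 windows carried E2F-type letters together with CCAAT. The first Uhrf1 window, next to the annotated gene start, held 3 CCAAT matches and 0 E2F-type matches, and the Mcm2 window held a single CCAAT box and no E2F-type letters. In Mcm5 and in Mcm6 a pair of E2F-type matches on opposite strands overlapped by 4 letters and read as one block. The E2F-type letters of Mcm3 lay after its start, beginning at bases 20 and 39. A gene with several windows was counted where any of them held the letters. Of the 36 members with a window, 14 (38.89%) held E2F-type letters, compared with 2.6% of the 27025 genes with a window and 4.24% of the 10917 among the tested genes. CCAAT was held by 20 members (55.56%), against 41.06% of all genes with a window. E2F-type letters were also found in 12 of 38 further replication genes (31.58%) and 9 of 24 genes that control S-phase entry (37.5%), and 1 of 29 mitosis genes (3.45%). The 14 with E2F-type letters (Orc1, Cdc6, Cdt1, Mcm3, Mcm5, Mcm6, Mcm7, Gins3, Pola1, Pold1, Pole2, Rfc3, Lig1 and Uhrf1) included 4 genes that rose and had a median log2 fold change of 0.72. The 22 without them included 1 that rose, Mcm2, and had a median of 0.42. The difference between these subsets was not tested.

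**Figure D3:**
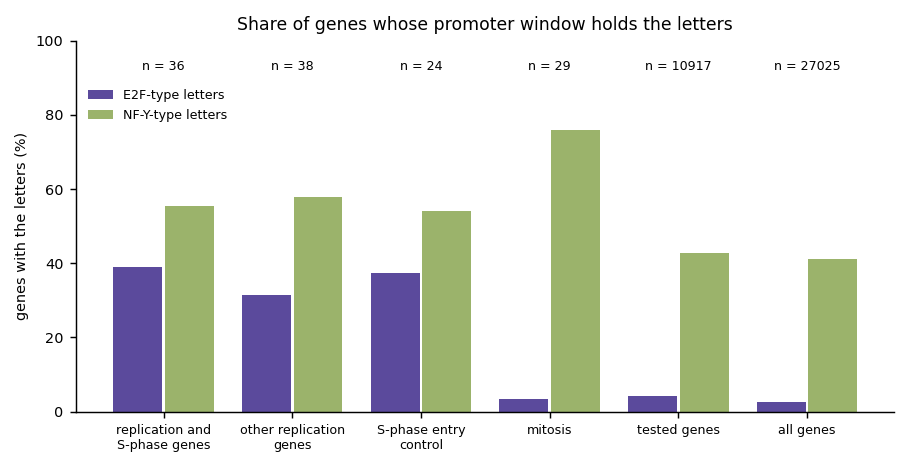
Share of genes, in percent, whose promoter window of 250 bases before to 50 after the start holds E2F-type letters (dark bars) or NF-Y-type letters, CCAAT (light bars), with the number of genes that have a window above each pair. E2F-type letters reach 38.89% in the replication and S-phase genes but 3.45% in the mitosis genes, where CCAAT reaches 75.86%.

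Origin licensing was the role with the most calls: 4 of its 10 genes rose, the median log2 fold change was 0.76, and the summed level was 1.40-fold higher in the mutant of group 1 and 1.44-fold in that of group 2. The helicase ring is built from 1 copy of each of 6 subunits, but the estimates for its RNAs differed. Mcm7 was at 54.3 and 45.6 CPM in controls 1 and 2 and 68.2 and 60.8 in mutants 1 and 2. Its mutants lay above its controls, but the fold change of 1.29 (1.03 to 1.63) did not pass (adjusted p = 0.223). Mcm4, which sits between Mcm6 and Mcm7 in the ring, was at 30.9, 30.5, 26.1 and 31.4 CPM in the same order of libraries. Mutant 1 was the lowest of the 4 and mutant 2 the highest, and the fold change was 0.93 (0.69 to 1.26, adjusted p = 0.917). The interval of Mcm4 lies below the estimate of each of the 4 subunits that rose. It narrowly overlaps the interval of Mcm6 (1.25 to 2.25), and the difference between subunits was not tested. Per kilobase of exon, the mean level ran from 6.85 CPM for Mcm3 to 19.3 for Mcm7, with Mcm4 at 8.28.

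Among the loaders of the ring, Orc1 and Cdc6 were low and measured with wide error. Orc1, the largest origin recognition subunit, had 24, 18, 42 and 24 counts in control 1, control 2, mutant 1 and mutant 2 (1.04, 0.857, 1.82 and 1.63 CPM). Both mutants were higher, but the interval of the fold change, 0.46 to 7.25, included values well below and well above 1. Cdc6, the loading ATPase, was at 3.46, 1.57, 8.59 and 3.86 CPM in that order, with the largest fitted log2 fold change of the members (1.30 ± 0.59, adjusted p = 0.229). Each mutant had more Cdc6 RNA than its littermate, and mutant 2 was only just above control 1. Orc6, the smallest subunit of the complex, went the other way in group 1: it was at 29.5, 24.9, 20.3 and 29.3 CPM, with log2 ratios of -0.54 and 0.24 and overlapping genotypes. Cdt1, the partner of Cdc6, did not pass the test (log2 fold change 0.62 ± 0.44).

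None of the 8 genes of helicase activation passed, yet 6 were above 0 in both experimental groups and the role's median log2 fold change was 0.71. The GINS subunits Gins1, Gins2 and Gins3 and the scaffold Mcm10 had both mutants above both controls, with log2 fold changes of 0.75 to 1.25 and standard errors of 0.58 to 0.67. Gins2, among the lowest of all members per kilobase (mean 0.959 CPM), was at 2.81, 1.91, 5.64 and 4.61 CPM in control 1, control 2, mutant 1 and mutant 2. Its mutants were separate from its controls, but 70.7% of its exon length is shared with Gse1 on the other strand, and the strand setting of the counting was not stated. Gins4 was among the highest per kilobase (mean 19.7 CPM) and was at 28.7, 19.8, 30.6 and 27.0 CPM, so control 1 lay above mutant 2. Cdc7, the kinase that fires origins, was at 10.9, 15.4, 11.1 and 11.3 CPM, and control 2 was the highest of the 4 libraries. Cdc45, a helicase component, was 1 of 2 members that were lower in the mutant in both experimental groups, with a fitted log2 fold change of -0.09 ± 0.37.

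The polymerases and primase had 0 calls among 7 genes and a median log2 fold change of 0.38, with all 7 fitted values above 0. Prim2, the large primase subunit, was at 14.7, 8.86, 13.7 and 16.5 CPM in control 1, control 2, mutant 1 and mutant 2. Its ratio was near 0 in group 1 (log2 -0.10) and positive in group 2 (0.89), with control 1 above mutant 1. Its catalytic partner Prim1 had the opposite profile, with log2 ratios of 1.46 in group 1 and 0.25 in group 2. The fitted log2 fold changes of Pola1 and Pola2 of polymerase alpha, of Pold1, the catalytic subunit of delta, and of Pole, that of epsilon, ranged from 0.10 to 0.38. The accessory epsilon subunit Pole2 was at 0.85 with a standard error of 0.81.

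The clamp, its loader and the lagging strand genes had small differences and standard errors of 0.16 to 0.36. Pcna, the sliding clamp, was the highest member per kilobase (mean 70.9 CPM) and was at 93.4, 95.8, 126 and 115 CPM in control 1, control 2, mutant 1 and mutant 2. Both mutants exceeded both controls, and the fold change of 1.28 (1.00 to 1.63) did not pass (adjusted p = 0.311). Pcna has 2 named pseudogenes, whose reads the counting may set aside or divide. Rpa1, which coats single-stranded DNA, was at 86.5, 64.7, 77.0 and 67.6 CPM. Controls spanned the mutants, and the fold change was 0.96 (0.77 to 1.20). Rfc2, a clamp loader subunit, was at 70.6, 45.8, 69.6 and 47.8 CPM, with group 1 above group 2 in both genotypes. Its fold change was 1.01 (0.81 to 1.27), and an increase of the size of Mcm5 lies outside the intervals of both Rpa1 and Rfc2. The other 6 genes of this role (Rfc3, Rfc4, Rfc5, Fen1, Lig1 and Rpa2) had log2 fold changes of 0.11 to 0.59, and all were above 0 in both groups.

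Estimates differed among the chromatin assembly genes, and the difference was not tested. Chaf1a and Chaf1b are partners in the complex that places new histones behind the fork, and Chaf1a was the other member below 0 in both groups, with a log2 fold change of -0.02 ± 0.23. Chaf1b was at 0.74 ± 0.58. All 4 nucleotide synthesis genes were above 0 in both groups, with a median log2 fold change of 0.61 and summed levels 1.45-fold and 1.51-fold higher in mutants 1 and 2 than in their littermates. Rrm1, the large subunit of ribonucleotide reductase, had the smallest adjusted p among members that did not pass (0.0818), at 53.4, 44.6, 66.7 and 70.1 CPM in control 1, control 2, mutant 1 and mutant 2. Its genotypes did not overlap. Rrm2 is the small subunit of ribonucleotide reductase, whereas Tyms and Tk1 supply other steps of deoxynucleotide synthesis. These 3 genes had log2 fold changes of 0.57 to 0.82.

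Of the 3 genes of S-phase entry, all low, E2f1 and Ccne1 had ratios of opposite sign in the littermate pairs. E2f1, a transcription factor that drives S-phase genes, was at 5.10 and 5.86 CPM in controls 1 and 2 and 10.2 and 4.61 in mutants 1 and 2. Mutant 1 was the highest and mutant 2 the lowest of the 4, with log2 ratios of 0.99 and -0.34. Ccne1, a cyclin that activates Cdk2 at the G1 to S transition, was at 4.71, 1.81, 3.82 and 2.03 CPM, with both libraries of group 1 above both of group 2. Its relative Ccne2 had a log2 fold change of 1.17 ± 0.66 with positive ratios in both groups. In all, 8 members had ratios of opposite sign in the groups: Orc6, Mcm4, Cdc7, Prim2, Rfc2, Rpa1, E2f1 and Ccne1. Precision followed the level of the gene. The 9 members with a mean under 5 CPM had standard errors of 0.58 to 1.02, and the 35 above that had 0.16 to 0.58.

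Some members differed between the experimental groups. Of the 44, 8 differed between groups at an adjusted p under 0.05 (18.2%, against 31.6% of all genes). Mcm2, Mcm5, Pold1, Rfc2, Rfc5 and Rpa2 were higher in group 1, where 14% of all genes were higher, and Pola1 and Dbf4 were higher in group 2, where 17.7% were. Pola1, the catalytic subunit of polymerase alpha, was at 23.6 and 24.5 CPM in control 1 and mutant 1 and at 41.7 and 46.5 CPM in control 2 and mutant 2. The groups were far apart and the genotypes close, with a log2 difference of 0.87 ± 0.20 for group 2 over group 1 (adjusted p = 0.000166). Per the series' design text, sex, age, parents and treatment all differ between the groups. Methimazole dose and recovery time were nevertheless listed as the same in both groups. Per the study, sample preparation and sequencing were shared within a group, and batch is named among the group differences. The tally of alignments that were not unique was 67710764 and 62182762 in control 1 and mutant 1. It was 10308536 and 6757456 in control 2 and mutant 2. These differences between the groups cannot be told apart. With smooth offsets for GC content and gene length, 1 member, Rfc2, still differed between groups, beside 3099 of the 15438 genes tested.

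**Figure D4:**
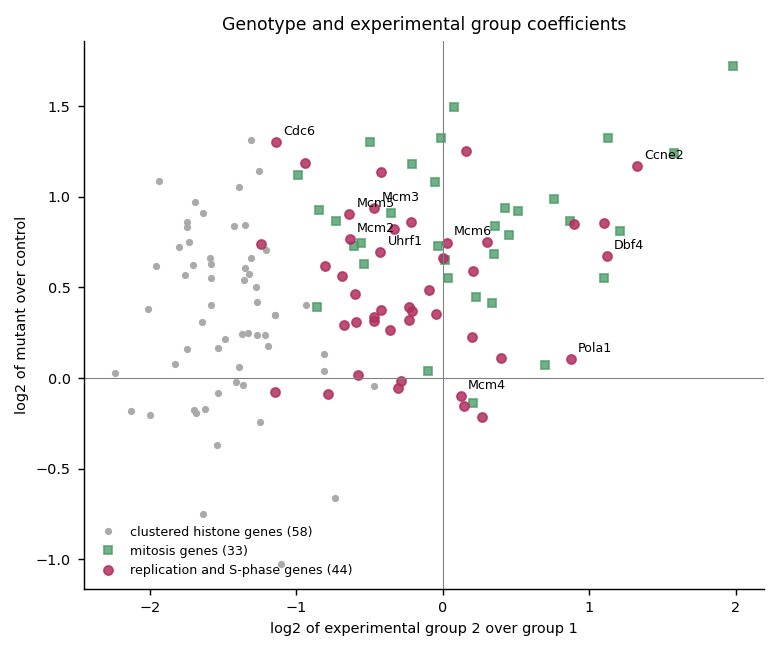
Each point is a gene, placed by the fitted log2 of experimental group 2 over group 1 (horizontal) and of mutant over control (vertical), for the 44 replication and S-phase genes, 33 mitosis genes and 58 clustered histone genes. Most members lie above the horizontal line and on both sides of the vertical one, whereas the histone genes lie to the left with a median of -1.46.

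Other genes of replication and of the cell cycle were read from separate lists. Of 46 further replication genes tested, 1 rose and 0 fell (2.17%), the median log2 fold change was 0.22, and the summed level was 1.03-fold and 1.11-fold higher within groups 1 and 2. The one that rose was Clspn, which encodes the fork checkpoint adaptor Claspin, with 5, 45, 88 and 86 counts in control 1, control 2, mutant 1 and mutant 2 (adjusted p = 0.0491). Control 1 was far below the other 3 libraries. Of 31 genes that control S-phase entry, 3 rose and 0 fell: cyclin A2 (Ccna2, log2 1.33 ± 0.29), the pocket protein Rbl1 (0.89 ± 0.29) and the cyclin-dependent kinase inhibitor Cdkn1b (0.54 ± 0.17). Ccna2 acts through S phase and G2, whereas Rbl1 and Cdkn1b are known for restraining entry.

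Mitosis genes had a larger median difference than replication genes. Of 33, 8 rose and 0 fell (24.2%), the median log2 fold change was 0.84, and the sum was 1.60-fold and 1.70-fold higher within groups 1 and 2, beside 1.26-fold and 1.29-fold for the replication and S-phase genes. Those that rose were Mki67 (log2 0.81), Top2a (0.98), Ccnb1 (1.08), Cdc20 (1.30), Kif11 (0.86), Kif2c (1.32), Cenpf (1.32) and Ube2c (1.49). Whether the lists differed from each other was not tested. Clustered histone genes were listed by symbol alone, so not every one need be an S-phase transcript, and the pseudogene Hist3h2bb-ps is among them. These histone genes moved with experimental group. The sum over all 68 listed genes was 4582 and 1619 CPM in controls 1 and 2 and 4606 and 1713 in mutants 1 and 2. Of the 58 tested, 53 were higher in group 1. Against genotype 4 of them rose (Hist1h1a, Hist1h1b, Hist1h1d and Hist1h2bm) and the sum was 1.01-fold and 1.06-fold higher. Many of these transcripts come from near-identical genes, so their counts are uncertain.

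Markers of some cell types in the sort also differed between the genotypes. Of 8 horizontal basal cell markers, 2 rose (Krt15 and Egfr), with sums of 2263, 1667, 3175 and 2206 CPM in control 1, control 2, mutant 1 and mutant 2. Of 10 progenitor markers, 2 rose (Kit and Hes6), with sums of 652, 788, 792 and 1001 CPM, so that both mutants were above both controls, mutant 1 by a narrow margin. All 12 mature neuron markers fell, with sums of 19154, 8472, 10516 and 2490 CPM, and of 10 immature neuron markers Dcx and Stmn4 fell. Mature neurons do not divide. Sustentacular markers had 0 calls among 8, with sums of 9325, 18804, 11469 and 23526 CPM. Leukocyte markers had 0 calls among 14 tested of 18, with sums of 574, 769, 279 and 710 CPM, and Cd79a, a B cell marker, was at 0 in 3 of the 4 libraries. Of 8 fibroblast and endothelial markers Col1a1 and Col1a2 fell, with sums of 987, 301, 646 and 510 CPM. The part of cell type composition in the higher replication gene levels was not tested.

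**Figure D5:**
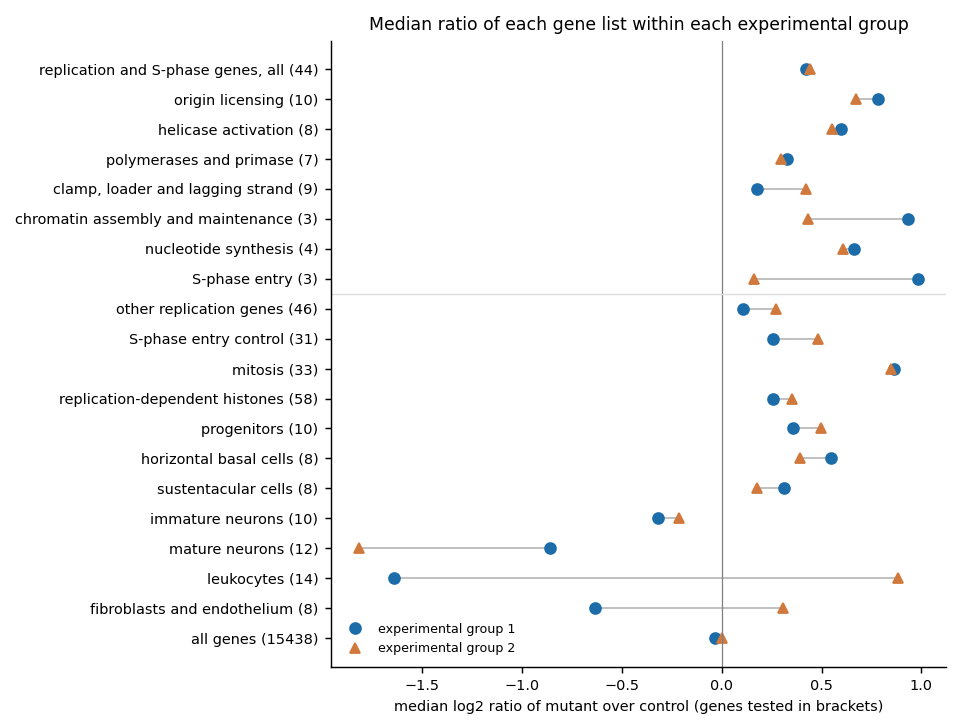
Median log2 ratio of mutant over control within experimental group 1 (circles) and group 2 (triangles) for all 44 members, for each role, and for the other gene lists, with the number of genes tested in brackets. The 44 members sit at 0.42 and 0.44, the mitosis genes at 0.86 and 0.85, and the mature neuron markers at -0.86 and -1.82.

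The members are spread over 14 chromosomes, with 8 genes on chromosome 5 and 6 on chromosome 8. Their median GC content was 49.04% and their median exon length 3022.5 bases, against 49.45% and 3300 bases for the tested genes, and the 5 that rose had a median GC content of 51.94%. Exons of 16 members overlap those of another gene, for 10 of them over more than 10% of the exon length, as for Fen1 (78.8%, with Gm10143) and Chaf1a (33.6%, with Ubxn6). None of the 5 genes that rose has such an overlap.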

How the data were processed

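RNA was extracted from sorted Tomato-positive cells, treated with DNase and depleted of ribosomal RNA by the authors, who removed ribosomal reads with Bowtie2 2.0.6, aligned 50-base reads to mm10 with TopHat2 2.0.7 and counted them with HTSeq (version not given). The files as deposited hold raw counts of reads for each gene symbol. Tally lines were left out, including 22.08% to 39.41% of uniquely aligned reads outside genes. Genes with CPM above 1 in 2 or more samples entered a negative binomial model in edgeR 4.0.16 (R 4.3.3), using TMM factors (0.977 to 1.05), tagwise dispersions, genotype and experimental group as terms, the likelihood-ratio test and Benjamini-Hochberg adjustment over 15438 genes. Test, model and CPM cutoff follow the study's methods. In the study's own listing the library totals also held the tally lines, so its filter was stricter and fewer genes were tested. Standard errors and 95% intervals are Wald estimates that use the fitted dispersion of each gene, and the model leaves 1 residual degree of freedom. Ratios within a group used a prior count of 2. At these depths 3 counts, the floor, correspond to 0.127 to 0.202 CPM.

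Members and lists were chosen with earlier results of these data known. Values in every sample were given for members past the threshold, the 3 highest and 3 lowest per kilobase, and those of opposite sign in the groups. Prim1, Rrm1, Pola1, Cdc45 and Chaf1a were singled out after their values were seen. Same-numbered samples are littermates per the study's methods, and their deviations from the genotype means correlated across genes (r = 0.52), so experimental group was kept as a block. Coordinates, length and GC content came from GENCODE vM21, matched for 97.94% of symbols. Alternatives were DESeq2 1.42.0, the quasi-likelihood test of edgeR, no block, RLE factors, other filters on low counts, thinning to the smallest library, GC and length offsets, and leaving out libraries. Subtracting an even background from mutant 1 was chosen after seeing the data.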

Additional observations from a re-analysis of the deposited data

Results flagged for a closer look

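In mutant 1, 39.41% of uniquely aligned reads fell outside genes, above the 23.76% and 24.88% of the controls and outside the data used in the comparisons.

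For 8 members the mutant was above its littermate control in one experimental group and below it in the other, which rests on 1 mouse per genotype and group and was not tested. The log2 ratio in group 2 minus that in group 1 was 0.78 for Orc6, 0.28 for Mcm4, -0.47 for Cdc7, 0.99 for Prim2, 0.081 for Rfc2, 0.23 for Rpa1, -1.32 for E2f1 and 0.46 for Ccne1. E2f1 and Prim2 had the widest gaps, in opposite directions, and that of Rfc2 was close to 0.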

How the results depend on the processing

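The median log2 fold change of the members stayed above 0 under every alternative run. It was 0.50 with no filter on low counts, 0.43 with CPM above 1 in all 4 samples, 0.35 with GC content and length offsets, 0.51 with an even background subtracted from mutant 1, and 0.31 (without mutant 1) to 0.58 (without control 1) when libraries were left out. Members that rose numbered 5, and 2 by the quasi-likelihood test, 1 by DESeq2 (of the 22 to which it gave an adjusted p) and 0 without the replicate block, where 0 members had an unadjusted p under 0.05. The same 5 passed under RLE factors, other filters, thinning, offsets and background subtraction. With 1 library left out, which is possible only without the block and with the lone sample assumed to vary like the other genotype, 0 members rose in each fit and 0 to 4 were higher at an unadjusted p under 0.05. Members that fell numbered 0 under each of these, and 0 were lower at an unadjusted p under 0.05. Members that differed between experimental groups numbered 4 by DESeq2 and 1 with offsets. Of the 15438 genes tested, 3948 differed between groups by DESeq2 and 3099 with offsets, against 4885 in the main fit. Over all genes, 115 rose by the quasi-likelihood test, 123 with offsets, 6 without the replicate block and 3 to 33 without 1 library, while 0 fell without the block and 0 to 5 without 1 library. Chaf1a turned to 0.0090 with no filter and 0.036 when thinned, and Rfc3 to -0.12 with offsets. Leaving out libraries turned the sign of 14 members, and the log2 fold change then ran from -0.18 to 0.16 for Chaf1a, -0.083 to 0.35 for Rfc3, -0.52 to 0.40 for Cdc45, -0.39 to 0.63 for Pola1, -0.22 to 0.17 for Rpa1, -0.69 to 0.71 for Ccne1, -0.45 to 0.076 for Cdc7, -0.29 to 0.37 for Rfc2, -0.54 to 0.24 for Orc6, -0.24 to 0.042 for Mcm4, -0.090 to 0.69 for Pold1, -0.12 to 1.44 for Chaf1b, -0.10 to 0.89 for Prim2 and -0.34 to 0.99 for E2f1. Without mutant 1 the 5 members that rose were at 0.39 (Mcm2), 0.70 (Mcm3), 0.55 (Mcm5), 0.69 (Mcm6) and 0.35 (Uhrf1). The cause was not tested.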
